A study of Mus musculus with 12 samples.

Results

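Major histocompatibility complex (MHC) genes and the machinery that prepares peptides for MHC molecules were followed in 12 primary neuroendocrine carcinomas of the mouse thyroid. Members were every gene whose symbol starts with H2-, the prefix of the mouse MHC, together with B2m, Tap1, Tap2, Tapbp, Psmb8, Psmb9, Psmb10, Nlrc5, Ciita and Cd74. This rule took 52 of the 23284 genes in the count tables: 2 classical class I genes, 28 nonclassical or class I-related genes, 11 class II genes with Cd74 among them, 7 genes of the class I machinery, 2 transactivators, and H2-Ke2 and H2-Ke6, which carry the H2 prefix but encode a prefoldin subunit and a hydroxysteroid dehydrogenase. Of the 52, 32 had enough reads to be tested, and 6 had no read in any tumour: H2-Ea-ps, H2-M10.4, H2-M10.5, H2-M10.6, H2-Q9 and H2-T9.

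The 5 tumours with the genotype label Rb1/Trp53/Crebbp are called RPC, and the 7 with the label Rb1/Trp53 are called RP. Both labels thus share Rb1 and Trp53, and the comparison asks which genes differ where Crebbp, a histone acetyltransferase and coactivator, is also targeted. The tumours came from a genetically engineered mouse model. The sources used here give neither the alleles, the way they were recombined, the mouse strain, sex or age, nor whether each tumour came from its own mouse. The p-values therefore measure the spread among the tumours at hand, which may be technical. Gene counts were 9.14 M to 20.5 M in RPC tumours and 9.11 M to 57.3 M in RP tumours, and 1 read was worth 0.0167 to 0.104 CPM (counts per M, scaled to library size). Crebbp averaged 53.9 CPM in RPC tumours and 54.6 CPM in RP tumours (log2 fold change -0.02 ± 0.20 SE, adjusted p = 0.957), and counts summed over a gene cannot show a lost exon. Rb1 was not called (adjusted p = 0.137), while Trp53 fell, with 16.1 CPM in RPC tumours and 28.9 CPM in RP tumours (log2 fold change -0.84 ± 0.17 SE, adjusted p = 0.00918). All 12 listed C-cell and neuroendocrine markers, Calca and Chga among them, were read in every tumour, with a summed level of 25561 to 138879 CPM in RPC tumours and 95974 to 234301 CPM in RP tumours. Gfra1 was called higher and Nkx2-1 lower in RPC tumours.

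RP3 and RP5, both RP tumours, stood apart from the others in genes that bear on the MHC. RP3 had the highest summed level of 24 interferon-stimulated genes, 1013 CPM, against at most 475 CPM elsewhere. It also had the highest summed level of 13 macrophage markers, 1703 CPM, against at most 1021 CPM elsewhere. RP5 had the highest level of the thymocyte recombinase gene Rag1, 2.49 CPM against at most 0.254 CPM elsewhere, and of 16 T and natural killer cell markers, 35.5 CPM summed against at most 9.05 CPM. For some of the results that rest on either tumour, a fit without it is also given. In bulk tumour RNA, fewer cells of a type and less RNA per cell cannot be told apart.

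MHC class I molecules stand on nearly all nucleated cells and show peptides from inside the cell to CD8 T cells. Proteasomes cut the peptides, the TAP transporter moves them into the endoplasmic reticulum, tapasin helps load them, and beta-2-microglobulin holds the heavy chain in shape. Class II molecules stand mainly on dendritic cells, macrophages and B cells, take up peptides cut in endosomes and show them to CD4 T cells. NLRC5 and CIITA are the transactivators of class I and class II genes. Neither binds DNA itself: they dock on RFX, CREB/ATF and NF-Y factors seated on the X1, X2 and Y boxes of MHC promoters, and recruit coactivators, with CBP, the product of Crebbp, among them.

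The promoters of 6 members are shown because these boxes lie there, with that of H2-Q10, the member with the lowest fold change, as 1 of 4 in which none of the letters searched was found. RefSeq promoters of GRCm38.p6, 250 bases before to 50 after a start, were found for 38 of the 52 members. They were searched on both strands for CCAAT (the Y box core), TGACG (the X2 core), GCAAC (the X1 core), an interferon-stimulated response element (ISRE: TTTC, any 2 bases and TTTC again) and TTCNNNGAA (a STAT site, GAS). Each line gives 170 bases, 150 before and 20 after the start, read 5′ to 3′ along the gene, with matches on either strand in capitals.
H2-K1 (chr17:34000328-34000497, reverse strand): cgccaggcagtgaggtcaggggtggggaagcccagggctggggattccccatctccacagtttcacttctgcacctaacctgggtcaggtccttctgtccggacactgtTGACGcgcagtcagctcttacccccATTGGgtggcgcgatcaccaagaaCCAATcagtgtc
H2-D1 (chr17:35262944-35263113, forward strand): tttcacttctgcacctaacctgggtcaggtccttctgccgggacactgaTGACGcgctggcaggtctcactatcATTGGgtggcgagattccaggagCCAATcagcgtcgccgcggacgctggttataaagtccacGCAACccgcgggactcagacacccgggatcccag
B2m (chr2:122147537-122147706, forward strand): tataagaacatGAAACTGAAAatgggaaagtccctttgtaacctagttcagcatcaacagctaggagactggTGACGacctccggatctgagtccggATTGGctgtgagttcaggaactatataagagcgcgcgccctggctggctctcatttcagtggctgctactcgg
H2-T23 (chr17:36032682-36032851, reverse strand): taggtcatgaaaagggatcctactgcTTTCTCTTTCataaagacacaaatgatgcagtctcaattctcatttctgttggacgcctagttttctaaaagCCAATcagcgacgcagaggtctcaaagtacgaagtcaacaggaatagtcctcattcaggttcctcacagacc
H2-Q10 (chr17:35469939-35470108, forward strand): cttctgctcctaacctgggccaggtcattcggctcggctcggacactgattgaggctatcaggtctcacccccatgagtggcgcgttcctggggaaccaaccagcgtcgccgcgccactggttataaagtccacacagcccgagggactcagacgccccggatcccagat
H2-Aa (chr17:34287804-34287973, reverse strand): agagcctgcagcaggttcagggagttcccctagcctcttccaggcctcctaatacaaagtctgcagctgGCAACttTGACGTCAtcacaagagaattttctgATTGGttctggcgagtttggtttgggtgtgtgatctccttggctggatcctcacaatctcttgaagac
CCAAT, or ATTGG on the other strand, stood in 31 of the 38 members' promoters and in 37.9% of 27025 mouse promoters. TGACG stood in 16 of 38 and in 21% of all, GCAAC in 13 of 38 and in 35.4%, the ISRE in 3 of 38 and in 3.49%, and the GAS in 4 of 38 and in 8.47%. CCAAT and TGACG started within 40 bases of each other in 11 members and in 3.68% of all promoters. These 11 were H2-K1, H2-D1, B2m, H2-Aa, H2-M3, H2-Q4, H2-Q7, H2-M10.1, H2-M10.3, H2-M10.4 and H2-M10.5. In the H2-Aa line the TGACG matches of the 2 strands overlap. The promoters of H2-Q10, Psmb10, H2-M5 and H2-T3 held none of the 5 motifs. The starts of Tap1 and Psmb9, which point away from each other, lie 226 bases apart, so their promoters share 275 bases. A match is only a match of letters, and no binding was measured here.

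Of the 32 tested members, 9 fell in RPC tumours and none rose at an adjusted p under 0.05 in edgeR's quasi-likelihood test: Tap2, Tapbp, Psmb10, H2-T23, H2-M3, H2-K2, H2-M9, H2-Q10 and H2-Ke6. These were 3 of 7 genes of the class I machinery, 5 of 13 tested nonclassical genes and 1 of 2 H2 genes outside presentation, with 0 of 2 classical heavy chains, 0 of 6 tested class II genes and 0 of 2 transactivators called by that test. Whether the classes differ was not tested. Over all 14989 genes tested, 8.61% fell, 9.64% rose and 18.3% were called in either direction. An unadjusted p under 0.05 in edgeR's test was found for 5336 of them. Log2 fold changes, RPC over RP, lay below 0 for 28 of the 32 members, with a median of -0.72, against -0.02 over all genes. Both H2-Q10 and H2-M9 passed the filter on low counts through RP tumours only, so they could be tested only where they were higher in RP tumours, and counts over the tested members are given as a description. The levels of Tap2, H2-K2, H2-M9 and H2-T23 did not overlap between the groups, and all 4 were lower in RPC tumours, whereas 6.26% of all genes tested did not overlap.

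Markers of follicular thyroid cells and adipocytes differed between the groups, with overlap. All 9 called members lost their call when a score of follicular thyroid markers or of adipocyte markers entered the fit. The calls over all genes were then 4 and 127. With these scores 14 and 16 of the 32 members were still at an unadjusted p under 0.05. So were 1844 and 3043 of all 14989 genes tested. Without a score these counts were 18 members and 5336 genes. With the follicular score the log2 fold changes of Tap2, H2-K2, H2-M9, H2-T23, Psmb10 and H2-Q10 were -0.75, -3.25, -1.69, -1.23, -1.05 and -4.78, no nearer to 0 than without it. Those of Tapbp, H2-Ke6 and H2-M3 were nearer to 0 with it, at -0.09, -0.07 and -0.40. With the adipocyte score the 9 values lay between -3.21 for H2-Q10 and -0.52 for H2-Ke6. Follicular markers had 2 of 10 tested genes lower in edgeR, 7 in DESeq2 and 9 in limma voom, with a summed level of 55.7 to 5755 CPM in RPC tumours and 1641 to 9298 CPM in RP tumours. Adipocyte markers had 9 of 10 lower in edgeR, with 68.8 to 169 CPM in RPC tumours and 88.6 to 2104 CPM in RP tumours. The RP tumours were split: RP1 and RP3 lay in the RPC range at 88.6 and 152 CPM and RP5 above it at 231 CPM. RP2, RP4, RP6 and RP7 stood at 625 to 2104 CPM. The part of the follicular and adipocyte markers in the members' fall was not tested. Scaling by total counts moved the median log2 fold change of all genes up by 0.19 and made rises 78.0% of all calls, against 52.8% under TMM scaling. With total counts 6 of the 9 falls were kept, and those of Psmb10, H2-T23 and H2-M3 were lost; the sign of no other tested member than H2-K1 and Tap1 turned.

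**Figure D1:**
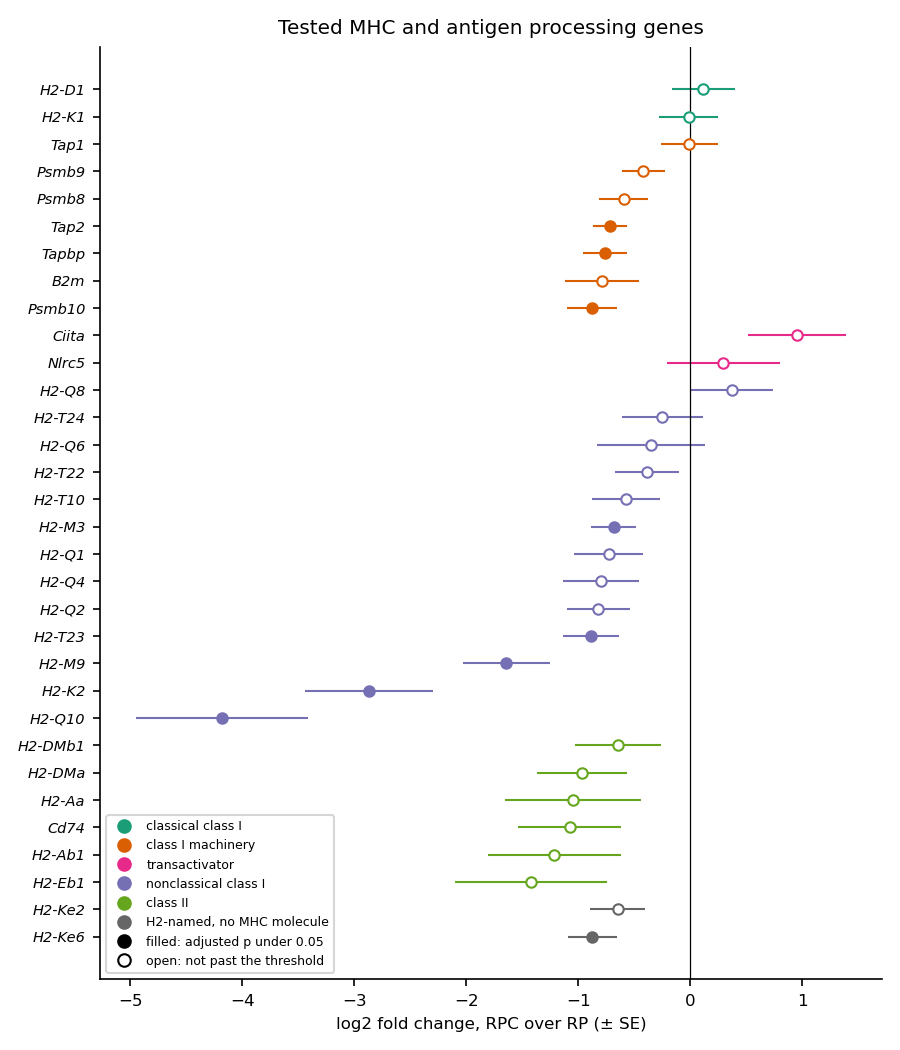
Log2 fold change of each of the 32 tested members, RPC over RP, with bars of ± 1 SE from edgeR's quasi-likelihood fit; colours give the class, and filled points have an adjusted p under 0.05. The 9 filled points all lie left of 0, and the only points right of 0 are those of Ciita, H2-Q8, Nlrc5 and H2-D1.

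The classical class I heavy chains, which carry most peptides shown to CD8 T cells, did not differ between the groups by more than their spread. H2-K1 stood at 1562, 725, 975, 1008 and 1054 CPM in RPC tumours 1 to 5, against 662 CPM at the lowest, 929 at the median and 1894 at the highest in the RP tumours. H2-D1 stood at 1153, 574, 767, 846 and 814 CPM in RPC tumours 1 to 5, against 441 CPM at the lowest, 609 at the median and 1331 at the highest in the RP tumours. RPC1 was the highest RPC tumour for both genes and RPC2 the lowest, RP2 was the highest and RP6 the lowest RP tumour, and the groups overlapped throughout. The log2 fold change of H2-K1 was -0.02 ± 0.27 SE, adjusted p = 0.973, with a 95% interval of -0.54 to 0.50. That of H2-D1 was 0.12 ± 0.28 SE, adjusted p = 0.792, with an interval of -0.44 to 0.67. The H2-K1 value lay above 0 under total-count scaling (0.18), and it was not called there either.

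B2m encodes beta-2-microglobulin, the light chain shared by classical and nonclassical class I molecules. It stood at 1831, 1046, 1099.8, 693 and 1571 CPM in RPC tumours 1 to 5, against 1259 CPM at the lowest, 1885 at the median and 4182 at the highest in the RP tumours. RP3 was the highest of all 12, and RPC4 the lowest, and the ranges overlapped. The difference missed the threshold in edgeR's test (-0.79 ± 0.33 SE, adjusted p = 0.111). It was called by DESeq2 and limma voom, with an adjusted p of 0.0489 in DESeq2 and 0.0435 in limma voom. Calls by these tools, here and below, stand beside larger shares of all genes tested: 26.6% in DESeq2 and 42.4% in limma voom, against 18.3% in edgeR. The count of H2-K1 per count of B2m, a ratio within a library that scaling does not touch, was 0.853, 0.693, 0.887, 1.46 and 0.671 in RPC tumours 1 to 5 and 0.977, 0.674, 0.185, 0.444, 0.547, 0.351 and 0.900 in RP tumours 1 to 7. RPC4 had the highest ratio and RP3 the lowest, and the other tumours overlapped.

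In peptide transport and loading, Tap2 and Tapbp fell, and Tap1 was not called. TAP is a dimer of the products of Tap1 and Tap2. Tap2 stood at 59.7, 45.3, 47.1, 66.4 and 46.3 CPM in RPC tumours 1 to 5, against 71.5 CPM at the lowest, 81.1 at the median and 118 at the highest in the RP tumours. Every RPC tumour lay below every RP tumour. For Tap2 the log2 fold change was -0.71 ± 0.15 SE, adjusted p = 0.0117, and the call held without each tumour in turn. Tap1 stood at 36.0, 37.4, 23.4, 21.2 and 37.6 CPM in RPC tumours 1 to 5, against 22.1 CPM at the lowest, 28.8 at the median and 60.7 at the highest in the RP tumours. RP3 alone lay above the RPC range, and the other tumours overlapped. The log2 fold change of Tap1 was -0.01 ± 0.25 SE, adjusted p = 0.986; it was 0.23 without RP3. Whether the fold changes of Tap1 and Tap2 differ was not tested.

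Tapasin, the product of Tapbp, bridges TAP and the empty class I molecule. Tapbp fell as well: it stood at 158, 92.1, 159.9, 236 and 125 CPM in RPC tumours 1 to 5, against 199 CPM at the lowest, 261 at the median and 312 at the highest in the RP tumours. RPC4 lay inside the RP range, while the other RPC tumours lay below it. Its log2 fold change was -0.76 ± 0.20 SE, adjusted p = 0.0232; the adjusted p was 0.0526 without RPC1. Of 11 further genes of peptide trimming, loading and quality control, Tapbpl, a tapasin relative that edits peptides, was the only one called, at 31.5 ± 7.13 CPM in RPC tumours against 46.1 ± 4.16 CPM in RP tumours (log2 fold change -0.55 ± 0.14 SE, adjusted p = 0.0211).

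Psmb8, Psmb9 and Psmb10 encode the catalytic subunits of the immunoproteasome, the form of the proteasome induced by interferon gamma. Psmb10 fell: it stood at 15.9, 17.9, 16.5, 20.2 and 18.9 CPM in RPC tumours 1 to 5, against 16.6 CPM at the lowest, 33.8 at the median and 49.2 at the highest in the RP tumours. RP1 lay among the RPC tumours and the other RP tumours above them. For Psmb10 the log2 fold change was -0.88 ± 0.23 SE, adjusted p = 0.0221, with adjusted p-values of 0.056 without RPC1 and 0.0539 without RPC2. Psmb8 stood at 46.6, 45.3, 32.7, 34.0 and 48.9 CPM in RPC tumours 1 to 5, against 36.1 CPM at the lowest, 70.3 at the median and 83.0 at the highest in the RP tumours. Psmb9, which shares its promoter region with Tap1, stood at 18.5, 23.4, 17.3, 15.9 and 22.2 CPM in RPC tumours 1 to 5, against 15.6 CPM at the lowest, 29.3 at the median and 34.0 at the highest in the RP tumours. RP1 and RP7 were the lowest RP tumours for both genes and lay within the RPC range or just below it, while RP2 to RP5 lay above it. Neither passed edgeR's threshold, with -0.60 ± 0.22 SE, adjusted p = 0.0735 for Psmb8 and -0.42 ± 0.20 SE, adjusted p = 0.144 for Psmb9; without RP1 both did, at adjusted p = 0.026 for Psmb8 and 0.0468 for Psmb9. Psmb8 was called lower by DESeq2 (adjusted p = 0.037) and by limma voom (adjusted p = 0.0216), and Psmb9 by limma voom (adjusted p = 0.0347). The constitutive catalytic subunits Psmb5, Psmb6 and Psmb7 gave 0 calls among 3 in edgeR, DESeq2 and limma voom, with 0 at an unadjusted p under 0.05; Psmb6 stood at 127 ± 7.61 CPM in RPC tumours and 140.5 ± 37.4 CPM in RP tumours (adjusted p = 0.599). The proteasome activator and assembly genes gave 0 calls among 5 in edgeR and DESeq2 and 2 in limma voom, with 1 at an unadjusted p under 0.05, that of Psme3 (log2 fold change 0.21 ± 0.08 SE, adjusted p = 0.0921).

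Nlrc5, the class I transactivator, was not called. It stood at 22.8, 33.0, 14.7, 4.44 and 24.1 CPM in RPC tumours 1 to 5, against 7.48 CPM at the lowest, 12.6 at the median and 46.8 at the highest in the RP tumours. RPC1, RPC2, RPC3 and RPC5 lay above 6 of the 7 RP tumours, RP3 was the highest of all, and RPC4 the lowest. Its log2 fold change was 0.30 ± 0.50 SE, adjusted p = 0.699, and without RP3 it was 0.83 (adjusted p = 0.118). With the follicular score in the fit the value was -1.35.

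**Figure D2:**
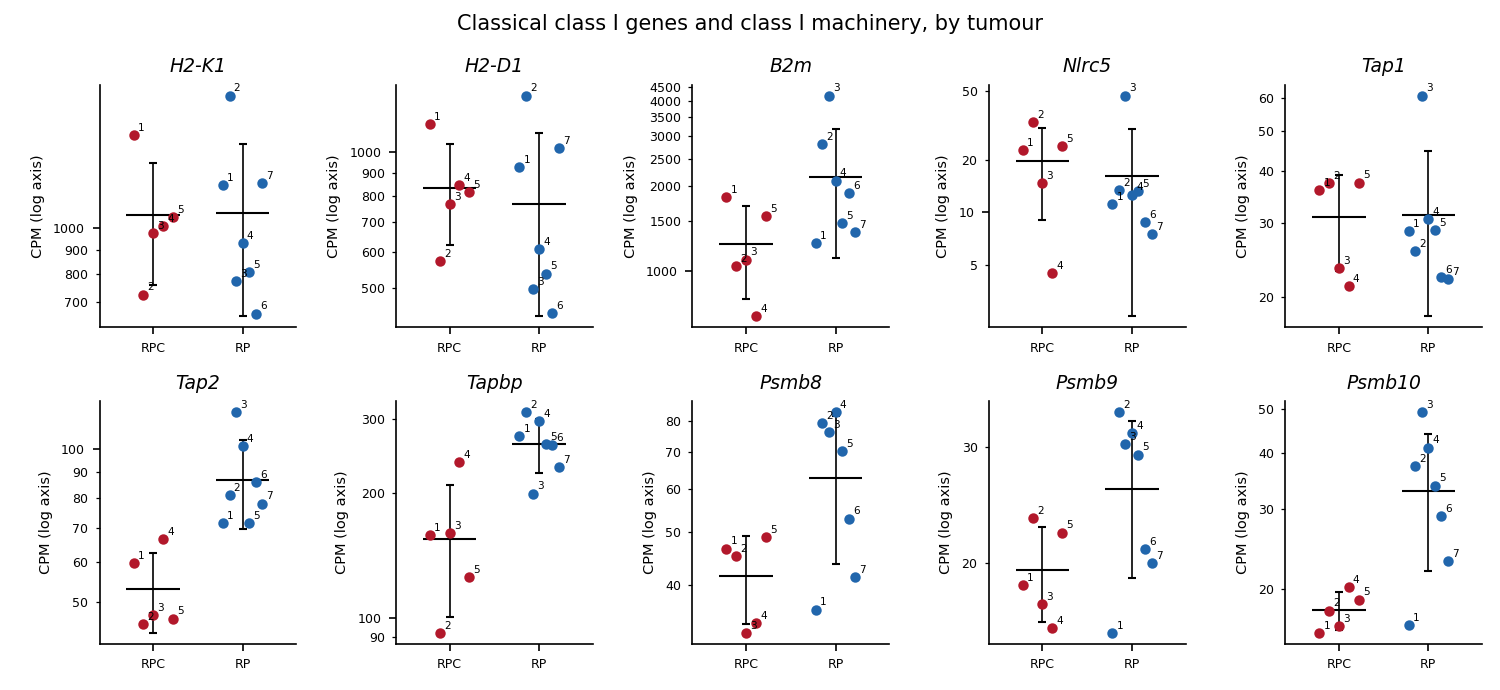
CPM on a log axis of 2 classical class I genes, B2m, Nlrc5 and 6 processing genes in each tumour, numbered within its group, with the mean and bars of ± 1 SD (RPC, n = 5; RP, n = 7). The groups are apart for Tap2 alone, RP1 lies with the RPC tumours for Psmb10, and RP3 is the highest tumour for B2m, Nlrc5, Tap1, Tap2 and Psmb10.

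The nonclassical and class I-related genes held 5 of the 9 falls. Of the 28, 13 were tested, 5 fell, and 12 had a log2 fold change below 0, with a median of -0.73. Over all genes tested, 8.61% fell. H2-Q10 and H2-M9, among the 5, passed the filter on low counts through RP tumours only, so the count is a description. Their summed level was 195 ± 33.0 CPM in RPC tumours (SD, n = 5) and 333 ± 148 CPM in RP tumours (SD, n = 7), with RP3 the highest at 654 CPM. These genes are close copies of one another, and the share of each gene's 50-base stretches found in no other GENCODE M21 gene differed: 90.6% for H2-K2 and 80.9% for H2-Q10, but 65.0% for H2-Q6, 63.6% for H2-Q4, 49.6% for H2-T10 and 46.5% for H2-T22. The sources used here give no read length, so levels of the last 4 are uncertain. H2-Q8 was not matched to a GENCODE M21 gene, so its share is unknown.

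H2-T23 encodes the heavy chain of Qa-1, which shows leader peptides of class I molecules to the CD94/NKG2A receptor of natural killer cells. It fell, at 54.1, 32.4, 42.0, 48.6 and 42.1 CPM in RPC tumours 1 to 5, against 56.7 CPM at the lowest, 68.1 at the median and 162 at the highest in the RP tumours. Every RPC tumour lay below every RP tumour, and RP3 stood far above the rest. Fitted as a log2 fold change this was -0.89 ± 0.25 SE, adjusted p = 0.0302. Without RP3 it was -0.63 (adjusted p = 0.0113), while the adjusted p was 0.0548 without RP4, 0.0813 without RPC2, 0.064 without RPC3 and 0.0601 without RPC5. The H2-T23 promoter line above holds an ISRE, as does that of B2m, and a CCAAT, but no TGACG.

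H2-M3 presents N-formylated peptides, typical of bacteria and mitochondria, to CD8 T cells. It fell as well, at 14.5, 9.26, 9.72, 18.1 and 8.91 CPM in RPC tumours 1 to 5, against 14.4 CPM at the lowest, 19.8 at the median and 23.4 at the highest in the RP tumours. RPC4 and RPC1 lay in the RP range, the other RPC tumours below it. Its log2 fold change was -0.68 ± 0.20 SE, adjusted p = 0.0337. The call was lost without any 1 of RP2, RP4, RPC1, RPC2, RPC3 or RPC5 (adjusted p = 0.0644, 0.0678, 0.0508, 0.0852, 0.0797 and 0.0695), and without both RP3 and RP5 (adjusted p = 0.0516).

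The members with the lowest fold changes, H2-Q10, H2-K2 and H2-M9, were rare transcripts. H2-Q10, known as a secreted class I molecule of mouse liver, stood at 0.378, 0.275, 0.283, 0.0888 and 0.290 CPM in RPC tumours 1 to 5. Its values were 0.281, 7.87, 8.33, 4.80, 1.69, 9.58 and 2.66 CPM in RP tumours 1 to 7. RP1 lay among the RPC tumours, and the other RP tumours above them. For H2-Q10 the log2 fold change was -4.18 ± 0.77 SE, adjusted p = 0.00711, and it fell under the filter, and so out of the test, without both RP3 and RP5. The RPC values rest on 1 to 6 reads a tumour. The hepatocyte gene Alb had no read in 11 of 12 tumours, while Ttr stood at 186 to 468 CPM in RPC tumours and 36.6 to 462 CPM in RP tumours. The 10 listed hepatocyte markers summed to 197 to 856 CPM in RPC tumours and 48.9 to 510 CPM in RP tumours. Fgb was the only one called, with 7.09 ± 7.03 CPM in RPC tumours and 0.311 ± 0.307 CPM in RP tumours.

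H2-K2, which RefSeq lists as a transcribed pseudogene, stood at 1.13, 0.825, 1.04, 2.84 and 1.38 CPM in RPC tumours 1 to 5. It reached 3.44, 6.06, 27.6, 11.6, 11.3, 10.6 and 3.23 CPM in RP tumours 1 to 7. The groups did not overlap, and RP3 to RP6 lay well above the other RP tumours. For H2-K2 the log2 fold change was -2.87 ± 0.57 SE, adjusted p = 0.00924, and the call held without each tumour in turn. H2-M9, of a family known from neurons of the vomeronasal organ, stood at 0.315, 0.458, 0.472, 0.444 and 0.217 CPM in RPC tumours 1 to 5, against 0.507 CPM at the lowest, 1.26 at the median and 1.97 at the highest in the RP tumours. The groups did not overlap, although RPC3 and RP7 nearly met. Its log2 fold change was -1.64 ± 0.39 SE, adjusted p = 0.0181, and it fell under the filter, and so out of the test, without any 1 of RP1 to RP5.

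The remaining 8 tested nonclassical genes were not called by edgeR; DESeq2 and limma voom called H2-Q2 lower, and limma voom also H2-Q1. In edgeR's test H2-Q2 came nearest (-0.82 ± 0.28 SE, adjusted p = 0.0585), followed by H2-Q1 (-0.73 ± 0.31 SE, adjusted p = 0.112) and H2-Q4 (-0.80 ± 0.34 SE, adjusted p = 0.115). H2-T10, H2-T22, H2-T24 and H2-Q6 had log2 fold changes of -0.57, -0.39, -0.25 and -0.35. H2-Q8, one of the Qa-2 genes, was the only one of the 13 above 0 (0.37 ± 0.37 SE, adjusted p = 0.499). Among the 15 not tested, H2-M2 lay at 0.283 to 0.504 CPM in RPC tumours, and at 0.281, 0.708, 8.43, 4.40, 7.03, 3.65 and 0.571 CPM in RP tumours 1 to 7. H2-M10.1 had at most 1 read in an RPC tumour and 1 to 42 reads in an RP tumour. Without a filter H2-M2 and H2-M10.1 were tested and both were called lower in RPC tumours.

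The same 4 RP tumours, RP3 to RP6, stood apart in the make-up of the H2 reads. H2-K2 counts per H2-K1 count were 0.000726, 0.00114, 0.00106, 0.00282 and 0.00131 in RPC tumours 1 to 5 and 0.00280, 0.00320, 0.0357, 0.0125, 0.0140, 0.0160 and 0.00261 in RP tumours 1 to 7. H2-Q8 counts per H2-Q4 count were 0.260, 0.265, 0.217, 0.181 and 0.313 in RPC tumours and 0.218, 0.210, 0.0999, 0.0696, 0.0780, 0.0625 and 0.165 in RP tumours. RP3 to RP6 had the 4 highest values of the first ratio, the 4 lowest of the second, and the 4 highest levels of H2-M2. RP1, RP2 and RP7 lay nearer to the RPC tumours in all 3 measures. The sources used here do not give the H2 haplotypes of these mice, and the cause of this split was not tested. The ratios were chosen after the values were seen and were given no test.

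**Figure D3:**
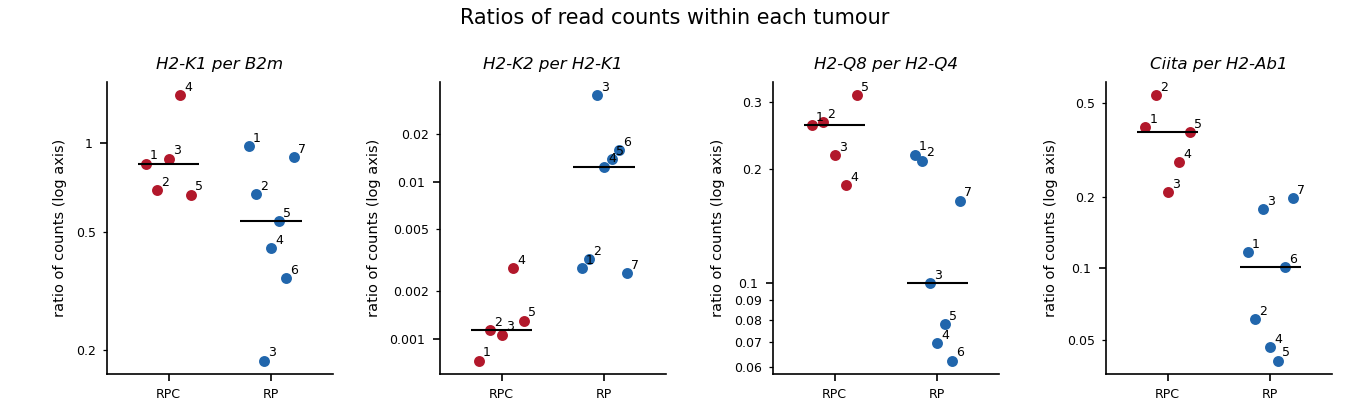
Ratios of read counts within each tumour on log axes, numbered within RPC (n = 5) and RP (n = 7), with lines at the medians; H2-K1 per B2m, H2-K2 per H2-K1, H2-Q8 per H2-Q4 and Ciita per H2-Ab1. RP3 to RP6 lie above 0.01 in H2-K2 per H2-K1 and at or below 0.0999 in H2-Q8 per H2-Q4, and the groups are apart for Ciita per H2-Ab1.

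The class II genes had lower fitted levels in RPC tumours, but none of the 6 that passed the filter on low counts was called by edgeR, and for H2-Aa, H2-Ab1 and H2-Eb1 the fitted difference was smaller without RP5. All 6 tested class II genes had a log2 fold change below 0, with a median of -1.06. Of these, 0 of 6 passed edgeR's test, while 2 of 6 had an unadjusted p under 0.05, as did 5336 of all 14989 genes tested. The summed level of the 11 class II genes was 265, 116, 211, 217 and 264 CPM in RPC tumours 1 to 5 and 215, 304, 719.8, 391, 1282, 211 and 146 CPM in RP tumours 1 to 7. RP5 and RP3 were far above the others, and RPC2 and RP7 were the lowest. DESeq2 called 1 of them, Cd74 (adjusted p = 0.0456), and limma voom 0.

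H2-Aa and H2-Ab1 encode the alpha and beta chains of I-A, and H2-Eb1 the beta chain of I-E. H2-Aa stood at 39.4, 17.1, 30.6, 43.8 and 39.8 CPM in RPC tumours 1 to 5, against 20.2 CPM at the lowest, 48.2 at the median and 265 at the highest in the RP tumours. H2-Ab1 stood at 31.9, 10.997, 26.7, 27.1 and 29.2 CPM in RPC tumours 1 to 5, against 15.7 CPM at the lowest, 36.0 at the median and 209 at the highest in the RP tumours. H2-Eb1 stood at 25.4, 11.1, 21.2, 20.7 and 32.1 CPM in RPC tumours 1 to 5, against 13.1 CPM at the lowest, 36.3 at the median and 231 at the highest in the RP tumours. RP5 was the highest tumour for all 3, several times above the next, and RPC2 lay lowest for all 3; the rest overlapped. The log2 fold changes were -1.05 ± 0.61 SE, adjusted p = 0.235 for H2-Aa, -1.21 ± 0.60 SE, adjusted p = 0.164 for H2-Ab1 and -1.42 ± 0.68 SE, adjusted p = 0.152 for H2-Eb1. Without RP5 they were -0.16, -0.40 and -0.47 (adjusted p = 0.739, 0.404 and 0.404). The partner chain of H2-Eb1 is H2-Ea, whose row H2-Ea-ps had no read.

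Cd74 encodes the invariant chain, which fills the class II groove until the molecule reaches endosomes. It stood at 154, 70.013, 123, 113 and 152 CPM in RPC tumours 1 to 5, against 83.6 CPM at the lowest, 157 at the median and 532 at the highest in the RP tumours. RP3 and RP5 had more than any other tumour, RPC2 had the least, and the rest overlapped. For Cd74 the log2 fold change was -1.08 ± 0.46 SE, adjusted p = 0.113, and -0.31 without both RP3 and RP5 (adjusted p = 0.413).

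H2-DMa and H2-DMb1 encode chains of H2-DM, which swaps the invariant chain fragment for peptide. H2-DMa stood at 6.11, 3.94, 4.91, 5.51 and 4.85 CPM in RPC tumours 1 to 5, against 2.98 CPM at the lowest, 7.63 at the median and 21.4 at the highest in the RP tumours. RP5 and RP3 were the highest, RP7 the lowest, and the groups overlapped. Its log2 fold change was -0.97 ± 0.40 SE, adjusted p = 0.109. H2-DMa was called without RP7 (adjusted p = 0.0472), but not without RP3, without RP5 or without both. The log2 fold change of H2-DMb1 was -0.65 ± 0.39 SE, adjusted p = 0.245. H2-DMb2, another beta chain gene, was not tested; it stood at 0 to 0.0724 CPM in RPC tumours and at 0 to 5.71 CPM in RP tumours. H2-Oa and H2-Ob encode H2-DO, the inhibitor of H2-DM found mostly in B cells. H2-Oa had no read in any RPC tumour, where 3 reads would be at most 0.275 CPM, and 0.0703 to 0.837 CPM in RP tumours, the highest in RP5. H2-Oa fell under the filter on low counts. Without a filter H2-DMb2 and H2-Oa were tested and both were called lower in RPC tumours, and with a filter at a mean of 1 CPM H2-DMb2 was. No such fit was made without RP5, the deepest library, which held 341 of the 439 H2-DMb2 reads and 50 of the 65 H2-Oa reads.

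Ciita, the transactivator of class II genes, had a fitted value above 0 and was not called by edgeR. It stood at 12.6, 5.96, 5.61, 7.64 and 11.006 CPM in RPC tumours 1 to 5, against 1.87 CPM at the lowest, 3.11 at the median and 9.37 at the highest in the RP tumours. All RPC tumours lay above 5 of the 7 RP tumours, and RP3 and RP5 lay inside the RPC range. For Ciita the log2 fold change was 0.95 ± 0.44 SE, adjusted p = 0.14; limma voom called it higher (1.42, adjusted p = 0.0108), and DESeq2 did not (adjusted p = 0.101). It passed the threshold without RP3 (1.23, adjusted p = 0.0476) and without both RP3 and RP5 (1.71, adjusted p = 0.00618). With a leukocyte score in the fit it was 1.79 (adjusted p = 0.0188), and with an adipocyte score 0.06 (adjusted p = 0.943). Ciita counts per H2-Ab1 count were 0.395, 0.542, 0.211, 0.282 and 0.377 in RPC tumours 1 to 5 and 0.118, 0.0613, 0.178, 0.0464, 0.0408, 0.101 and 0.198 in RP tumours 1 to 7. The ratio was higher in every RPC tumour than in any RP tumour; it was chosen after the values were seen and was given no test.

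**Figure D4:**
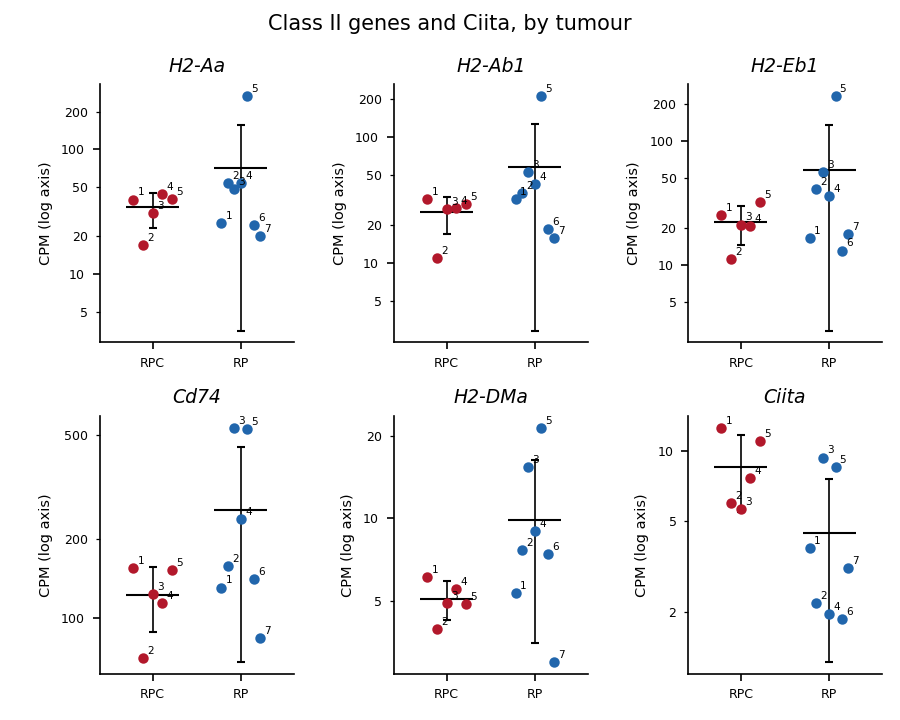
CPM on a log axis of 5 class II genes and Ciita in each tumour, numbered within its group, with the mean and bars of ± 1 SD (RPC, n = 5; RP, n = 7). RP5 is the highest tumour for H2-Aa, H2-Ab1, H2-Eb1 and H2-DMa, and for Ciita the 5 RPC tumours lie above RP1, RP2, RP4, RP6 and RP7.

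Relations across tumours were measured for 2 class II pairs and for H2-Ab1 with a leukocyte gene. Over 12 tumours, log2 CPM of Cd74 and H2-Ab1 correlated at r = 0.88 (Spearman rho = 0.91 with permutation p = 1.4e-04; permutation p of r = 1e-05, the smallest that 100000 resamples can give, and 8e-05 after adjustment over 8 pairs). Without RP3 and RP5 r was 0.88. Ptprc, the pan-leukocyte gene for CD45, correlated with H2-Ab1 at r = 0.79 (rho = 0.78 with permutation p = 0.00401; permutation p of r = 0.00204, adjusted 0.00544). That relation was weaker without RP3 and RP5, the 2 tumours farthest from the median of Ptprc, at r = 0.45. With them, r was 0.94 within the 7 RP tumours and 0.75 with each genotype centred on its own mean. Ciita and H2-Ab1 gave r = 0.27 over all tumours (rho = 0.21 with permutation p = 0.514; permutation p of r = 0.424, adjusted 0.497), but r = 0.68 within the 7 RP tumours. With each genotype centred on its own mean, r was 0.67.

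Among class I genes, Psmb9 and Irf1, a factor that drives class I genes, gave r = 0.76 (rho = 0.59 with permutation p = 0.0461; permutation p of r = 0.00541, adjusted 0.0108), and 0.65 without RP2 and RP3; the adjusted p of its rho was 0.0923. Nlrc5 and H2-K1 gave no relation past the threshold (r = -0.16, rho = -0.16 with permutation p = 0.62; permutation p of r = 0.622, also after adjustment). With B2m it gave r = 0.53 (rho = 0.29 with permutation p = 0.358, and permutation p of r = 0.0738, adjusted 0.118). This became -0.23 without RP3 and RPC4, and 0.73 without RPC2 (adjusted permutation p = 0.0202). Over all tumours r of Nlrc5 and B2m was 0.76 with each genotype centred on its own mean, and within the 7 RP tumours 0.82. Ptprc and H2-K1 gave r = -0.25 (rho = -0.23 with permutation p = 0.468; permutation p of r = 0.435, adjusted 0.497).

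**Figure D5:**
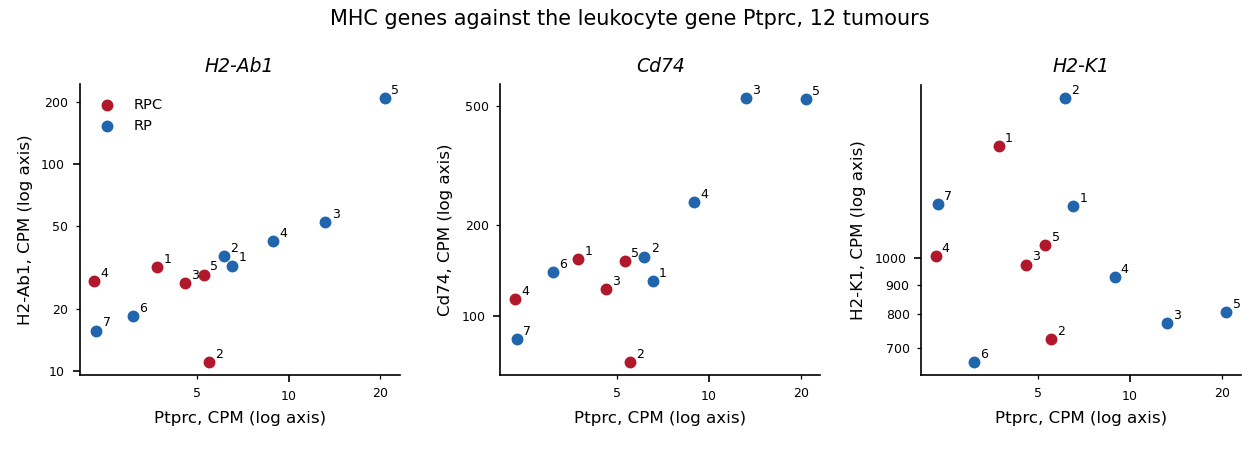
CPM of H2-Ab1, Cd74 and H2-K1 against CPM of Ptprc on log axes, 1 point per tumour, numbered within RPC (n = 5) and RP (n = 7). RP5, and for Cd74 also RP3, lie at the top right for the class II genes, with RPC2 below the others; H2-K1 shows no such order (r = -0.25).

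Markers of the cells that carry class II molecules were measured beside it. All 8 leukocyte markers had a log2 fold change below 0 and 1 was called, Cytip, with 1.81 ± 0.946 CPM in RPC tumours and 5.03 ± 3.51 CPM in RP tumours (adjusted p = 0.0464); its call was lost without any 1 of 8 tumours. Their summed level was 82.2 to 112 CPM in RPC tumours and 86.0 to 228 CPM in RP tumours. All 13 macrophage markers lay below 0 with 0 called, Csf1r nearest (-0.94 ± 0.35 SE, adjusted p = 0.0758), 2 at an unadjusted p under 0.05, 1 called by DESeq2 and 0 by limma voom, and a summed level of 296 to 727 CPM in RPC tumours and 346 to 1703 CPM in RP tumours. Of 9 dendritic cell markers 3 were tested and 0 called by edgeR, DESeq2 or limma voom, with 0 at an unadjusted p under 0.05. Of these 3, 2 had a log2 fold change above 0 and 1 below, with a median of 0.46. Of 8 B-cell markers 3 were tested and 2 fell: Cd79a, at 3.80 ± 0.526 CPM in RPC tumours against 19.3 ± 11.02 CPM in RP tumours (log2 fold change -2.34 ± 0.37 SE, adjusted p = 0.00395), and Fcer2a, while the defining gene Ms4a1 had no read in 10 of the 12 tumours. Of 16 T and natural killer cell markers 1, Lck, was tested, and it was not called (adjusted p = 0.289). With the leukocyte score in the fit, the log2 fold changes of H2-Aa, H2-Ab1, H2-Eb1, Cd74 and H2-DMa lay above 0, at 0.50, 0.35, 0.41, 0.17 and 0.01, with none called. Among markers of other tissue parts, 1 of 6 tested thymic epithelial genes fell (Foxn1, adjusted p = 0.00734), as did 2 of 9 endothelial, 1 of 9 fibroblast and 1 of 7 airway epithelial genes, and of 7 thymocyte genes 1 was tested and not called.

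Among the factors that seat the transactivators on MHC promoters, 1 fell and 1 rose. Of 8 genes for X and Y box factors, Rfx5, which encodes a subunit of RFX, fell, at 47.0 ± 5.28 CPM in RPC tumours against 67.6 ± 7.12 CPM in RP tumours (log2 fold change -0.52 ± 0.10 SE, adjusted p = 0.00838). Atf1, a CREB relative, rose, at 54.3 ± 6.60 CPM in RPC tumours against 41.5 ± 4.70 CPM in RP tumours (log2 fold change 0.39 ± 0.10 SE, adjusted p = 0.0259). The values of either gene did not overlap between the groups, and the call of Atf1 was lost without RP6, RPC1 or RPC2. Among 8 coactivator genes 0 were called, with 2 at an unadjusted p under 0.05, Kat2a nearest at 0.22 ± 0.07 SE, adjusted p = 0.0546; DESeq2 called 1 and limma voom 3. Among 6 genes of polycomb and DNA methylation, which can silence MHC genes, 3 rose: Suz12, at 149 ± 39.7 CPM in RPC tumours against 90.4 ± 14.3 CPM in RP tumours (log2 fold change 0.72 ± 0.16 SE, adjusted p = 0.0133), Dnmt1 (log2 fold change 0.69 ± 0.16 SE, adjusted p = 0.0168) and Ezh2 (0.75 ± 0.20 SE, adjusted p = 0.0256). The call of Dnmt1 was lost without RPC2, and that of Ezh2 without RP4, RPC1, RPC2 or RPC3.

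Of the genes of interferon signalling, which induces many of the members, 4 of 11 tested in the interferon gamma pathway and 1 of 7 in the type I pathway fell, against 8.61% of all genes tested. Of 12 interferon gamma pathway genes 11 were tested and 4 fell: Ptpn2, at 47.0 ± 1.34 CPM in RPC tumours against 56.4 ± 2.84 CPM in RP tumours (log2 fold change -0.26 ± 0.07 SE, adjusted p = 0.0226), Irf1, at 45.8 ± 3.13 CPM in RPC tumours against 62.1 ± 10.968 CPM in RP tumours (log2 fold change -0.44 ± 0.12 SE, adjusted p = 0.03), Socs1 (adjusted p = 0.0384) and the receptor gene Ifngr1 (adjusted p = 0.0402). Ptpn2 and Socs1 are brakes on the pathway, whereas Irf1 and Ifngr1 carry it forward. Among 7 genes of type I interferon signalling 1 fell, the receptor gene Ifnar2, at 54.9 ± 17.7 CPM in RPC tumours against 89.4 ± 17.2 CPM in RP tumours (log2 fold change -0.70 ± 0.21 SE, adjusted p = 0.0348). Among 24 interferon-stimulated genes 21 lay below 0 and 1 was called, a share under that over all genes: the chemokine gene Cxcl10, at 4.39 ± 1.23 CPM in RPC tumours against 10.8 ± 5.32 CPM in RP tumours (log2 fold change -1.30 ± 0.40 SE, adjusted p = 0.0408). DESeq2 and limma voom called 5 of the 24 each, 4 of them lower and 1 higher. Of 5 NF-kappa-B genes Nfkb2 and Nfkb1 fell (log2 fold changes -0.83 ± 0.18 and -0.37 ± 0.11 SE, adjusted p = 0.0141 and 0.0331). The calls of Irf1, Socs1, Ifngr1, Ifnar2, Cxcl10 and Nfkb1 were each lost without any 1 of 6 to 9 tumours and that of Ptpn2 without RPC1, and under total-count scaling 0 genes of the interferon gamma and interferon-stimulated lists were called.

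In the lists of class II peptide processing and of class I-like molecules, several genes fell and 1 rose. Over all genes tested, 8.61% fell and 9.64% rose. Of 8 genes of class II peptide processing and traffic 2 fell, the cathepsins Ctsb, at 1063 ± 185 CPM in RPC tumours against 1615 ± 139 CPM in RP tumours (log2 fold change -0.60 ± 0.14 SE, adjusted p = 0.0156), and Ctsh, at 28.2 ± 10.2 CPM in RPC tumours against 59.3 ± 18.4 CPM in RP tumours (log2 fold change -1.07 ± 0.27 SE, adjusted p = 0.02); the call of Ctsh was lost without RPC1 or RPC2. Of 10 class I-like molecules and ligands outside the H2 region 6 were tested, 4 fell and 1 rose. Fcgrt, the neonatal Fc receptor that also pairs with beta-2-microglobulin, fell, at 85.9 ± 18.6 CPM in RPC tumours against 158 ± 23.7 CPM in RP tumours (log2 fold change -0.88 ± 0.16 SE, adjusted p = 0.00655). Mr1, which shows vitamin B metabolites to T cells, fell (-0.72 ± 0.14 SE, adjusted p = 0.00872), as did Procr, the endothelial protein C receptor gene (-1.50 ± 0.29 SE, adjusted p = 0.00863), and Hfe, a regulator of iron uptake (-1.14 ± 0.23 SE, adjusted p = 0.00966). Cd1d2, a lipid-presenting relative of Cd1d1, rose, at 4.23 ± 0.971 CPM in RPC tumours against 0.364 ± 0.226 CPM in RP tumours (log2 fold change 3.56 ± 0.48 SE, adjusted p = 0.00184), and its values were apart between the groups, while Cd1d1 was not called (-0.05 ± 0.21 SE, adjusted p = 0.893).

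H2-Ke6 and H2-Ke2 lie in the H2 region but take no part in presentation. H2-Ke6, the dehydrogenase gene also named Hsd17b8, fell, at 30.6, 22.3, 33.7, 49.5 and 28.5 CPM in RPC tumours 1 to 5, against 33.0 CPM at the lowest, 62.1 at the median and 77.5 at the highest in the RP tumours. RPC4 and RPC3 lay inside the RP range, the other RPC tumours below it. For H2-Ke6 the log2 fold change was -0.87 ± 0.22 SE, adjusted p = 0.0214, with adjusted p-values of 0.053 without RPC1 and 0.0548 without RPC2, and 29.5% of its 50-base stretches were its own. H2-Ke2, the prefoldin gene also named Pfdn6, stood at 32.0, 28.8, 36.0, 44.0 and 28.4 CPM in RPC tumours 1 to 5, against 23.5 CPM at the lowest, 56.2 at the median and 75.3 at the highest in the RP tumours. The groups overlapped, and it was not called by edgeR (-0.65 ± 0.25 SE, adjusted p = 0.081). It was called lower by DESeq2 (adjusted p = 0.0389) and limma voom (adjusted p = 0.00375), and by edgeR with the leukocyte score (adjusted p = 0.0382), without RP3 (adjusted p = 0.0142) and without both RP3 and RP5 (adjusted p = 0.0176). These genes had a median log2 fold change of -0.76, near that of the nonclassical genes (-0.73) and of the class I machinery (-0.71).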

How the data were processed

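Each tumour came with a table of raw counts per gene that the authors deposited, 23284 genes in all; the counter's 5 summary rows entered neither library sizes nor tests. Reads in no gene made up 13.1% to 17.6% of a table and reads aligned to several places 10.9% to 18.5%. Per the labels' protocols, polyadenylated RNA from TRIzol lysates was made into NEBNext Ultra libraries. The submitters' processing notes name the build mm9 with TopHat2 2.0.12, HTSeq 0.6.1 and bcl2fastq 1.8.2. Annotation, strand setting and read length are not stated in the sources used here; reads of overlapping or antisense genes may therefore be mixed, and reads shared by near-identical H2 genes may be missing from both. The smallest chi-square per degree of freedom between tumours of a group was 25.6, so every library counted as 1 sample.

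Counts were analysed in R 4.3.3 with edgeR 4.0.16: filterByExpr (minimum count 10) left 14989 genes, TMM gave the scaling, and all 12 tumours entered a robust quasi-likelihood F test of genotype without covariates, with Benjamini-Hochberg adjustment over all genes tested and calls at an adjusted p under 0.05. The SE is the size of the log2 fold change over the square root of F, and 95% intervals are 1.96 SE on either side. CPM refers to TMM-scaled libraries, and a prior count of 2 went into log2 CPM. The floor of 3 counts, 0.0502 to 0.312 CPM, covers counting error only. On simulated data with 200 of 14989 genes changed between RPC and RP, the test recovered 55.9% of 2-fold and 86.9% of 4-fold changes, and 6 of 151 calls were false. Correlations used 100000 two-sided permutations in scipy 1.17.1, adjusted over 8 pairs, of which 1 is not reported here.

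The members and lists were chosen with earlier results of these data known. Named with values were the principal members of each class, every called member and the 2 members of each class with the smallest p. From each further list up to 4 called genes with the smallest p were taken, or the nearest gene where none was called. Those of the dendritic cell, endothelial, fibroblast, follicular, adipocyte and airway lists are counted but not named. Crebbp, Alb, Ttr, Rag1, Ms4a1, Hfe, Cd1d1, H2-M2, H2-M10.1, H2-DMb2, H2-Oa and the ratios fall outside this rule and were chosen after values were seen. Promoters are RefSeq sequences of GRCm38.p6, matched by symbol; no coordinate of the counts was used with them. Gene uniqueness is the share of a gene's 50-base stretches absent from all other genes of GENCODE M21, which is not the authors' annotation. Alternatives were DESeq2 1.42.0, limma 3.58.1 voom with quality weights, 3 scalings, 2 filters, tumour number as a block, marker scores as covariates and leaving out each tumour. Leaving out RP3 and RP5 together, the further lists under DESeq2 and voom, and the listed genes without each tumour were added after seeing the data.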

Additional observations from a re-analysis of the deposited data

Results flagged for a closer look

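In 46 searches of a named member's log2 CPM within a genotype, 6 tumours stood farther from the nearest of the others than the 95% limit of Dixon's gap over range allows; chance alone does so in about 1 of 20 searches. RP3 stood high among RP tumours for Tap1 (60.7 CPM, the next tumour 30.8), the class I transactivator gene Nlrc5 (46.8 CPM, the next 13.4) and H2-T23 (162 CPM, the next 81.6). RP3 was also the RP tumour with the highest summed level of interferon-stimulated genes. H2-Aa stood high in RP5 at 265 CPM, with the next RP tumour at 53.8 CPM. H2-Ab1 stood low in RPC2, at 10.997 CPM, with the next RPC tumour at 26.7 CPM. H2-Q10 stood low in RPC4, at 0.0888 CPM, which is 1 read, with the next RPC tumour at 0.275 CPM. The causes were not tested.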

How the results depend on the processing

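Of the 9 members called in edgeR's test, all 9 were kept by DESeq2 (14 called), limma voom (16 called, 1 of them, Ciita, higher) and RLE or upper quartile scaling (9 each), 9 with no filter (13 called) and 8 with a filter at a mean of 1 CPM (10 called), 6 under total-count scaling, 5 with a leukocyte score (8 called) and 0 with a follicular or adipocyte score. Fits without 1 tumour kept 5 (without RPC1 or RPC2) to 9 of them and called 6 (without RP4) to 14 (without RPC4); without RP3 and RP5 together 6 were kept, with H2-M3, H2-M9 and H2-Q10 lost, and 8 called. Of all genes tested, 18.3% were called in the main fit, 26.6% in DESeq2 and 42.4% in voom. The share was 18.1% and 17.8% under RLE and upper quartile scaling and 23% under total counts. It was 11.6% with no filter, 18.6% with the filter at a mean of 1 CPM and 19.3% with the leukocyte score. Calls over all genes, 2736, were 6357 in voom and 4 and 127 with the follicular and adipocyte scores. In the fits without 1 tumour they were 1074 or 7.08% (without RPC2) to 3510 or 23.5% (without RP3). The sources used here do not say whether equal tumour numbers pair the samples. Deviations of tumours with the same number correlated at -0.06 to 0.16, and 1 of 5 numbers matched its own partner best. The replicate block over tumours 1 to 5 gave 463 genes and 2 members, H2-K2 and H2-M9, against 868 genes and 5 members in the same 10 tumours without the block. Some values that were not called in the first place turned sign. H2-K1 was 0.061 in voom, 0.18 under total counts, 0.40 and 0.079 with the follicular and adipocyte scores, and -0.19 to 0.18 without 1 tumour. Tap1 was 0.14 in voom, 0.18 under total counts, 0.48 with the leukocyte score, 0.25 without RP3 and RP5, and -0.10 to 0.23 without 1 tumour. H2-D1 was -0.18 with the leukocyte score, -0.075 without RP3 and RP5, and -0.028 to 0.31 without 1 tumour. The leukocyte score gave 0.17 for Cd74, 0.50 for H2-Aa, 0.35 for H2-Ab1, 0.41 for H2-Eb1 and 0.0089 for H2-DMa. The follicular score gave 0.078 for H2-Ke2 and -1.35 for Nlrc5, and the adipocyte score -0.37 for Nlrc5. The causes were not tested. Pearson's r of Nlrc5 with H2-K1 was 0.074 and that with B2m 0.63 (adjusted p = 0.0432) under total counts, and r of Ptprc with H2-Ab1 was 0.62 (adjusted p = 0.0878) without RP5. The log2 ratio of mean summed levels was -1.12 for class II genes (-0.65 without RP5) and 0.46 for the transactivators (0.95 without RP3). It was -0.77 for the nonclassical genes (-0.52 without RP3) and -0.76 for the class I machinery (-0.56 without RP3). For the classical heavy chains it was 0.042, with -0.12 (without RPC1) to 0.23 (without RP2) in the fits without 1 tumour. Of 37 called genes taken from the further lists, 15 were called without each tumour in turn and 26 under total counts. Under total counts the interferon gamma, interferon-stimulated, leukocyte, endothelial and fibroblast lists had 0 calls. The NF-kappa-B and C-cell lists had 1 each, the proteasome activator and coactivator lists 1 each and the airway list 2. Rare members such as H2-Q10, H2-M9 and H2-Oa rest on few reads, so depth limits their values. In the simulation with 5 and 7 tumours, 55.9% of 2-fold changes were called. It changed 200 of 14989 genes, whereas 2736 were called in the data, so this rate need not hold here.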
